A study of Mus musculus with 6 samples.

Results

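The transcripts of the translation initiation factors (Eif1 to Eif6) and elongation factors (Eef1 and Eef2) were examined in mouse platelet RNA. They were taken by name from the deposited expression table: 66 symbols began with these stems and carried no pseudogene mark, and the Y-linked Eif2s3y was left out, which gave 65 genes of 14975. The name also brings in regulators called after the factors, such as the eIF4E-binding proteins and the eIF2 kinases. Platelets came from the peripheral blood of mice on a C57BL/6 background, female per the study's methods, in 2 groups of 3 libraries. In the pre-AML group, which the labels call AML, mice had been sub-lethally irradiated and had received GFP+ cells from primary recipients of hematopoietic stem and progenitor cells transduced with an MLL-AF9 retrovirus, and blood was taken 1 week later. In the BMT control group, labelled WT, irradiated mice had received normal bone marrow cells, so both groups had undergone irradiation and transplantation. The leukemic cells carried a retroviral oncogene, and the study describes reduced blood cell counts after irradiation at this time. The series' design text mentions 2 replicates per group and pools of 3 to 4 mice, while the study's methods describe 3 independent mice and the labels name 3 libraries per group, so p-values measure the spread between these libraries.

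Translation in eukaryotic cells begins when eIF2 brings the initiator tRNA to the small ribosomal subunit, with eIF1, eIF1A, eIF3 and eIF5 bound to it. The eIF4F complex, made of the cap-binding eIF4E, the scaffold eIF4G and the RNA helicase eIF4A, recruits the mRNA, and the subunit then scans to a start codon. During elongation eEF1A delivers aminoacyl-tRNAs and eEF2 moves the ribosome along the mRNA. Platelets have no nucleus and make protein from RNA inherited from megakaryocytes, so their RNA is largely inherited.

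Values were FPKM, fragments scaled to gene length and library size, which is a level per length and can be compared between genes. The libraries held between 11936010 and 17778984 reads on the listed genes, as recovered from the values. Pre-AML 3 stood apart. Its scaling used a library size 1.31 times its recovered reads, against 0.983 to 1.01 in the others, and its FPKM summed to 376148 against 508605 to 541784. The 8 platelet markers summed to 88558 to 112540 FPKM in the controls and to 60459 FPKM in pre-AML 3. RNA of other blood cells was higher in that library. Without Lyz2, the most abundant gene of the list in controls, the other 8 of 9 monocyte and macrophage markers summed to 1.30 to 2.07 FPKM in the controls, 6.02 in pre-AML 1, 21.3 in pre-AML 2 and 420 in pre-AML 3, where all 9 were at their highest, and Cd14 and Itgam were at 0 in every control. The 6 B cell markers in the table summed to 0.311 to 0.894 FPKM in the controls, at most 4.38 in pre-AML 1 and 2, and 58.8 in pre-AML 3 (Pax5 was at 0 in every control). The 7 T and NK cell markers in the table summed to 19.1 to 28.6 FPKM in the controls, mostly Nkg7, at most 34.0 in pre-AML 1 and 2, and 40.7 in pre-AML 3. Without Nkg7 they summed to 0.110 to 0.397 FPKM in the controls and to 8.73, 5.52 and 18.1 FPKM in pre-AML 1, 2 and 3. Cd3g and Cd2 were at 0 in every control. All pre-AML libraries were above all controls for 4 of these 7 genes and for 4 of the 9 monocyte and macrophage markers. The same held for 1 of the 5 erythroid markers and for 0 of the platelet, neutrophil and B cell markers. Among all genes, it held for 6.14% of those averaging 1 FPKM or more and for 8.11% of those below 1 FPKM. The 8 neutrophil markers reached at most 3.71 FPKM in any library and 0.661 in pre-AML 3, with Ly6g, Elane, Mpo and Retnlg at 0 in every control, and the 5 erythroid markers in the table summed to 2350 to 2652 FPKM in the controls, at most 2991 in pre-AML 1 and 2, and 2377 in pre-AML 3. The part of these cells in the results below was not tested. In bulk RNA, fewer cells of a type and less RNA per cell cannot be told apart.

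A few of the factors made up most of their RNA. Of the 65 genes, 14 had a mean of at least 10 FPKM over the 6 libraries, 23 lay between 1 and 10, and 28 lay below 1, and 46 had at least 10 recovered reads in every library. Eif1 had a mean of 1714 FPKM, place 33 of the whole table, followed by Eif3h at 364, Eef1a1 at 259 and Eif4ebp1 at 170 FPKM. Those 4 genes held 84.6% to 90.7% of the summed FPKM of the 65 in a library, and Eif1 alone held 50.9% to 64.2%. Together the 65 genes made up 0.524% to 0.588% of all FPKM in the table. Ordered by level, only 4 of 64 neighbouring pairs had ranges over the 6 libraries that did not overlap, namely Eif1 over Eif3h, Eef1a1 over Eif4ebp1, Eif4ebp1 over Eef2, and Eif2ak1 over Eif5.

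**Figure D1:**
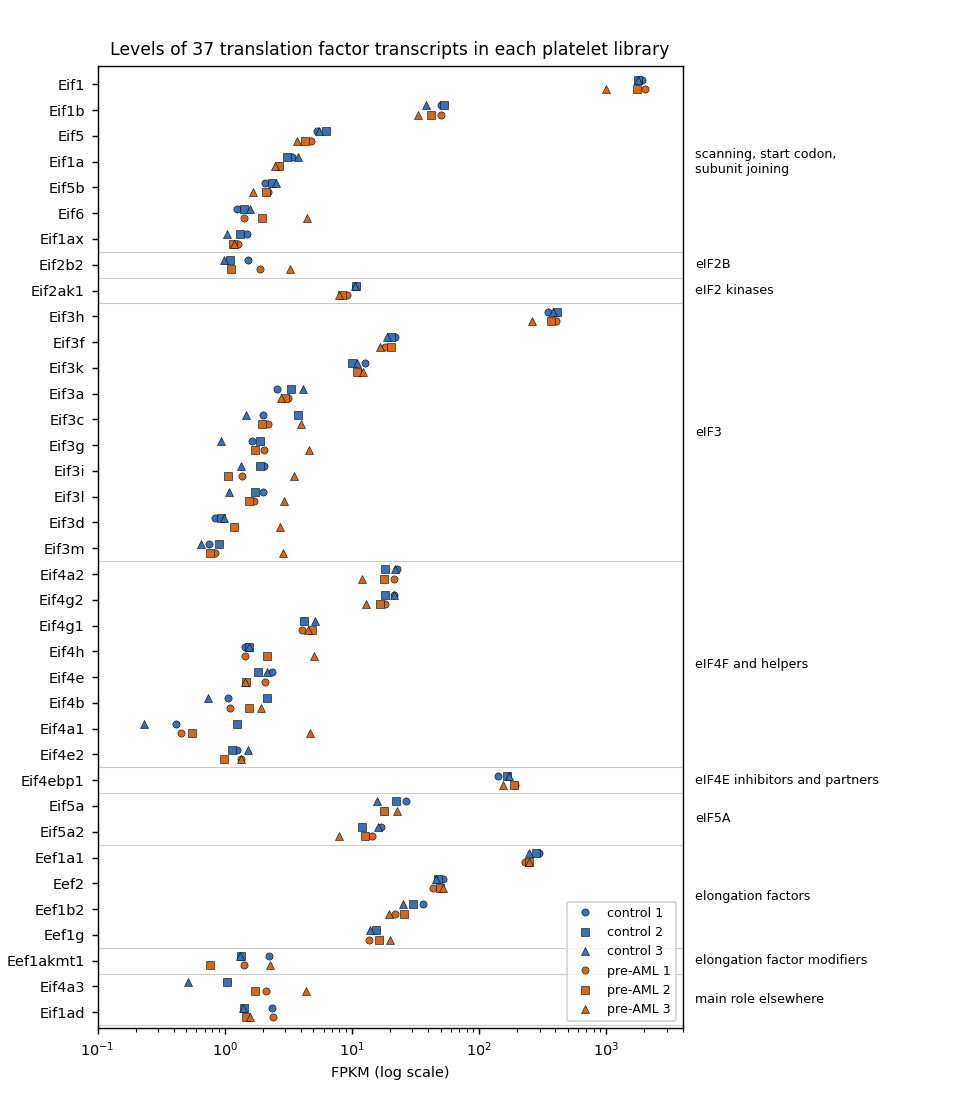
FPKM (log axis) of the 37 factors with a mean of at least 1 FPKM, grouped by role, with 1 point per library (blue, BMT control; orange, pre-AML; circle, square and triangle for libraries 1, 2 and 3). Eif1, Eif3h, Eef1a1 and Eif4ebp1 lie above 100 FPKM in every library, and pre-AML 3 is the point farthest to the right for Eif4a1, Eif4a3, Eif6 and Eif4h.

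None of the factors differed between pre-AML and control platelets at the threshold used, an adjusted p of 0.05 in limma-trend on log2(FPKM + 1) with Benjamini-Hochberg adjustment over all 4412 genes that had a mean of at least 1 FPKM. Of the 65, 37 passed that filter, and the smallest adjusted p among them was 0.522. The limma-voom test on recovered reads also called 0 of them. Over all genes tested, 1 was higher in pre-AML (0.0227%) and 0 were lower (0.0%). At an unadjusted p under 0.05, 1 factor was higher, Eif4a3, against 2.56% of all genes tested, and 3 were lower, Eif5, Eif2ak1 and Eef1b2, against 6.53%. All pre-AML libraries lay above all controls for 2 tested factors, Eif4a3 and Eif3d, against 6.14% of all genes tested. All lay below for 3, Eif2ak1, Eif5 and Eif1a, against 12.8%. Eif4a3 and Eif3d averaged below 1 FPKM in controls (0.866 and 0.922). They passed the filter only through their pre-AML means (2.75 and 1.70), so their place above the controls is not independent of that filter. The median log2 fold change of the 37 was -0.05, and that of all genes tested was -0.06. Of the 37, 16 had a fold change above 0 (43.2%, against 41.5% of all genes tested). With every library rescaled to the same FPKM sum, the median of all genes tested moved to 0.08 and that of the 37 to 0.05, and the counts at an unadjusted p under 0.05 became 2 higher and 0 lower. Without pre-AML 3 they were also 2 higher and 0 lower, and no factor passed the adjusted threshold. The 95% intervals give the sizes these libraries leave possible on the scale of log2(FPKM + 1), which understates changes of low genes. An interval within -1 to 1 on this scale therefore does not bound the change in FPKM itself. Eif3d, whose interval lay inside, had a log2 fold change of 0.45 on this scale and 0.85 with limma-voom on recovered reads. For 30 of the 37 the interval of the log2 fold change lay within -1 to 1, and over all 37 the intervals ran from -0.88 (Eif5a2) to 1.74 (Eif4a1).

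**Figure D2:**
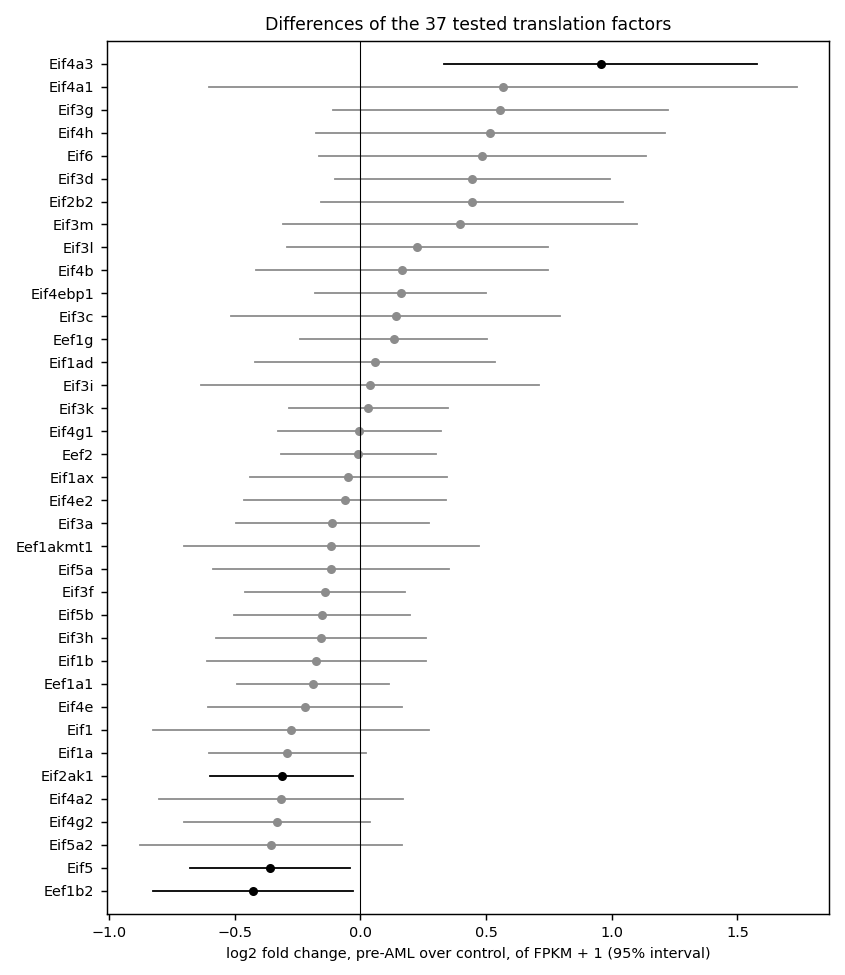
log2 fold change of FPKM + 1, pre-AML over control, for the 37 tested factors, with 95% intervals from limma-trend (3 libraries per group); black marks an unadjusted p under 0.05. Only Eif4a3, Eif5, Eif2ak1 and Eef1b2 have intervals clear of 0, and the widest is that of Eif4a1.

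Among the scanning and start-codon factors, Eif1, which keeps the scanning ribosome from starting at the wrong codon, was the most abundant factor of all. Its gene lies on GRCm38 chromosome 11, 100319885-100322096, plus strand. Its levels were 1932, 1797 and 1798 FPKM in controls 1 to 3 and 2012, 1740 and 1004 FPKM in pre-AML 1 to 3. The pre-AML 3 library was far below the other 5, which overlapped, and the log2 fold change was -0.28 (SE 0.24, adjusted p = 0.637) with that library and 0.02 without it. Eif1b, its close paralog, had 50.1, 53.1 and 38.7 FPKM in controls and 50.5, 41.8 and 33.5 FPKM in pre-AML libraries, so that the groups overlapped. A sequence search of GENCODE found 13 genes that met the rule used here for near-identity with Eif1, Emd among them. How the counting divided such reads is not given in the sources used here. Eif5, the GTPase-activating protein for eIF2 (chromosome 12, 111538016-111546752, plus strand), had 5.36, 6.28 and 5.57 FPKM in controls and 4.77, 4.27 and 3.74 FPKM in pre-AML libraries. Every pre-AML value was below every control value, and the log2 fold change was -0.36 (SE 0.14, adjusted p = 0.522), or -0.22 with equal FPKM sums and -0.11 with length and GC trends removed. Eif1a, which shares with eIF1 the task of holding the scanning complex open, had 3.39, 3.07 and 3.77 against 2.67, 2.66 and 2.48 FPKM. These groups did not overlap either, with a log2 fold change of -0.29 (SE 0.14, adjusted p = 0.522), although the value was 0.01 once trends with gene length and GC content were removed. Eif6, which keeps the large ribosomal subunit from joining too early, had 1.26, 1.42 and 1.59 FPKM in controls and 1.42, 1.96 and 4.43 FPKM in pre-AML libraries, and an antisense gene overlaps its exons. The remaining scanning factors were Eif5b, which joins the subunits, with a mean of 2.16 FPKM, and Eif1ax at 1.25 FPKM.

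The genes that deliver the initiator tRNA were at low level. All 5 had means below 1 FPKM and were left out of the main test, from Eif2s1, the alpha subunit of eIF2, at 0.977 to Eif2a at 0.147 FPKM. Eif2s1 had 0.726, 0.877 and 0.740 FPKM in controls and 0.751, 0.895 and 1.88 FPKM in pre-AML libraries, the last being the only value clear of the rest. Of the 5 subunits of eIF2B, the exchange factor that recharges eIF2 with GTP, 4 were below 1 FPKM. The exception was Eif2b2, with 1.54, 1.09 and 0.981 FPKM against 1.91, 1.13 and 3.27 FPKM, where the groups overlapped (log2 fold change 0.44, SE 0.26, adjusted p = 0.537). The value was 0.18 without pre-AML 3. Eif2b1 had a mean of 0.531 FPKM, and its level in pre-AML 3 was 5.65 times the median of the other 5 libraries.

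The 4 kinases that phosphorylate eIF2 alpha and so lower general translation under stress were very unequal in level. Eif2ak1 encodes HRI, the heme-regulated kinase known for coupling globin synthesis to heme in red cell precursors. Its mean was 9.63 FPKM, which was 31.9 times that of Eif2ak3 (PERK, the kinase of endoplasmic reticulum stress) at 0.302 FPKM. Eif2ak2 (PKR, activated by double-stranded RNA) had 0.139 and Eif2ak4 (GCN2, activated by uncharged tRNA) had 0.0282 FPKM. Eif2ak1 (chromosome 5, 143817788-143904251, plus strand) had 10.9, 10.8 and 10.7 FPKM in controls and 9.12, 8.43 and 7.92 FPKM in pre-AML libraries. The controls were almost equal and all lay above the pre-AML libraries. The log2 fold change was -0.31 (SE 0.12, adjusted p = 0.522), and it was -0.27 without pre-AML 3 and -0.16 with equal FPKM sums. Its exons overlap those of Aimp2 and Ankrd61 on the opposite strand, and whether the counting used strand is not given in the sources used here.

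The 14 subunit genes of eIF3, the large scaffold that holds the initiation complex on the small subunit, spanned 0.0331 FPKM (Eif3j2) to 364 FPKM (Eif3h), with a median of 1.86 FPKM. Eif3h (chromosome 15, 51786558-51865523, minus strand) was 18.7 times the next subunit gene, Eif3f at 19.4 FPKM. Its values were 348, 414 and 381 FPKM in controls and 405, 372 and 263 FPKM in pre-AML libraries. Only pre-AML 3 lay outside the control range, and the log2 fold change was -0.16 (SE 0.18, adjusted p = 0.722), or 0.03 without that library. GENCODE holds 1 gene near-identical to Eif3h. Eif3f had 21.9, 20.5 and 18.9 FPKM against 18.3, 20.5 and 16.6 FPKM, and the groups overlapped. Eif3k had a mean of 11.4 FPKM. The core subunit genes were lower, with Eif3a at 3.17, Eif3c at 2.57, Eif3g at 2.15, Eif3i at 1.88 and Eif3b at 0.279 FPKM. Eif3d, which can itself bind the cap of some mRNAs, had 0.840, 0.944 and 0.981 FPKM in controls and 1.20, 1.19 and 2.73 FPKM in pre-AML libraries. All pre-AML values lay above all controls, but pre-AML 3 was far above the other two, and the log2 fold change was 0.45 (SE 0.24, adjusted p = 0.526), or 0.19 without pre-AML 3. Eif3g had 1.63, 1.90 and 0.932 against 2.05, 1.74 and 4.62 FPKM (log2 fold change 0.56, adjusted p = 0.526, or 0.24 without pre-AML 3). Of the 10 tested eIF3 genes, 0 passed the adjusted threshold, 0 had an unadjusted p under 0.05 and the median log2 fold change was 0.09.

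**Figure D3:**
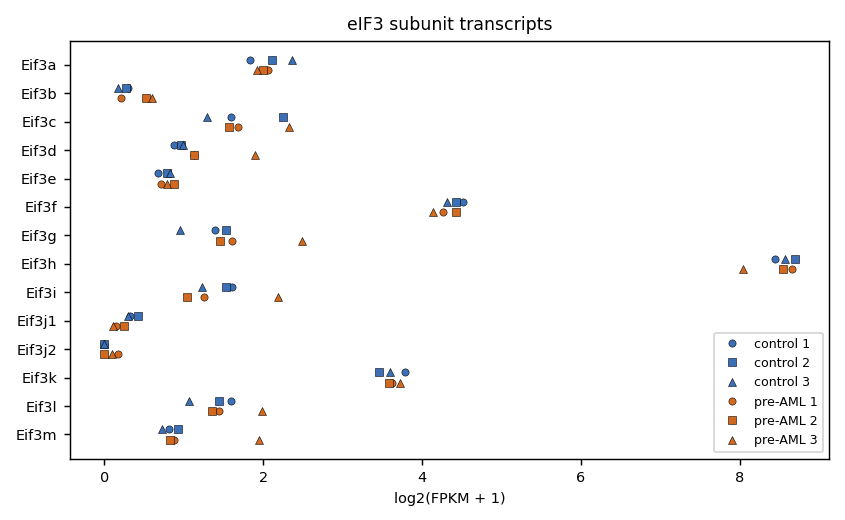
log2(FPKM + 1) of the 14 eIF3 subunit genes in each library (blue, BMT control; orange, pre-AML; circle, square and triangle for libraries 1, 2 and 3). Eif3h stands above every other subunit gene in all 6 libraries, and pre-AML 3 is to the right of the other libraries for Eif3d, Eif3g, Eif3i, Eif3l and Eif3m.

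In the cap-binding machinery the helicase genes differed by paralog. Eif4a2 had 22.8, 18.4 and 22.1 FPKM in controls and 21.7, 17.9 and 12.0 FPKM in pre-AML libraries (log2 fold change -0.32, SE 0.21, adjusted p = 0.571). The value was -0.092 without pre-AML 3 and -0.013 with length and GC trends removed. Eif4a1, which encodes the paralog that predominates in most proliferating cells, had 0.413, 1.26 and 0.233 FPKM in controls, 0.451 and 0.551 FPKM in pre-AML 1 and 2 and 4.70 FPKM in pre-AML 3. The last value was 10.4 times the median of the other 5 libraries and rested on 475 recovered reads, against 12 to 77 in the others, and GENCODE lists 3 genes near-identical to it. The ratio of Eif4a2 to Eif4a1 was 55.3, 14.6 and 94.9 in controls, 48.1 and 32.4 in pre-AML 1 and 2 and 2.55 in pre-AML 3. Among the scaffolds, Eif4g2, which lacks the eIF4E-binding site and serves cap-independent initiation, was the highest at 21.3, 18.1 and 21.5 against 18.3, 16.8 and 13.0 FPKM (log2 fold change -0.33, SE 0.16, adjusted p = 0.522, or -0.20 without pre-AML 3 and -0.10 with length and GC trends removed). Eif4g1, the canonical scaffold, had 4.20, 4.20 and 5.17 against 4.05, 4.90 and 4.56 FPKM, and Eif4g3 had a mean of 0.478 FPKM. Eif4h, a cofactor of the helicase, had 1.45, 1.56 and 1.56 against 1.45, 2.16 and 5.07 FPKM (log2 fold change 0.52, adjusted p = 0.537, or 0.14 without pre-AML 3). Eif4e itself, the cap-binding protein, had a mean of 1.89 FPKM.

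The inhibitor of eIF4E was far more abundant as RNA than eIF4E. Eif4ebp1 (chromosome 8, 27260329-27276674, plus strand) encodes a protein that holds eIF4E away from eIF4G until mTORC1 phosphorylates it. It had 142, 166 and 172 FPKM in controls and 194, 189 and 154 FPKM in pre-AML libraries, with a log2 fold change of 0.16 (SE 0.15, adjusted p = 0.654), which was 0.33 with equal FPKM sums, 0.26 without pre-AML 3 and 0.078 without control 1. Its mean was 233 times that of Eif4ebp2 at 0.729 FPKM. Within a library, the ratio of Eif4ebp1 to Eif4e was 60.7, 91.2 and 80.2 in controls and 92.8, 129 and 106 in pre-AML libraries. All pre-AML ratios lay above all control ratios. With 3 against 3 libraries the exact two-sided permutation p was 0.1, the smallest this design allows, and 0.35 after Benjamini-Hochberg adjustment over 7 ratios, which were chosen after the values had been seen.

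The elongation factor genes were among the higher ones. Eef1a1 (chromosome 9, 78478449-78489151, minus strand) had 300, 282 and 246 FPKM in controls and 229, 248 and 248 FPKM in pre-AML libraries, so the groups overlapped only through control 3 (log2 fold change -0.19, SE 0.13, adjusted p = 0.583). The value was -0.018 with equal FPKM sums, -0.036 with length and GC trends removed and -0.066 with quantile normalization. GENCODE lists 8 genes near-identical to it. Eef2, the translocase, had 51.9, 48.1 and 46.4 against 43.5, 49.8 and 52.6 FPKM, with a log2 fold change of -0.01 (95% interval -0.32 to 0.30). The ratio of Eef1a1 to Eef2 was 5.78, 5.87 and 5.31 in controls and 5.27, 4.97 and 4.71 in pre-AML libraries, which did not overlap (exact permutation p = 0.1, adjusted 0.35). Eef1b2 (chromosome 1, 63176825-63180486, plus strand), the exchange factor that recharges eEF1A, had 36.3, 30.4 and 25.5 against 21.9, 26.0 and 19.5 FPKM. The groups overlapped between control 3 and pre-AML 2, and the log2 fold change was -0.43 (SE 0.17, adjusted p = 0.522), or -0.26 with equal FPKM sums. Its exons overlap those of Ndufs1 on the opposite strand. The other subunits of the exchange complex were Eef1g at 15.9 and Eef1d at 0.858 FPKM. Of the 6 genes for enzymes that modify elongation factors, 5 were below 1 FPKM, and Eef1akmt1, a lysine methyltransferase for eEF1A, had 1.57 FPKM. Eef2k, the kinase that inhibits eEF2, was one of them at 0.177 FPKM. The eIF5A proteins, which carry hypusine and help ribosomes through difficult peptide bonds, were represented by both genes. Eif5a had 26.9, 22.2 and 15.7 against 17.9, 17.8 and 22.8 FPKM, and Eif5a2 had 17.0, 12.0 and 16.1 against 14.5, 12.8 and 7.96 FPKM. Their ratio was 0.975 to 1.85 in controls and 1.24 to 2.87 in pre-AML libraries (exact permutation p = 0.7, adjusted 0.817).

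**Figure D4:**
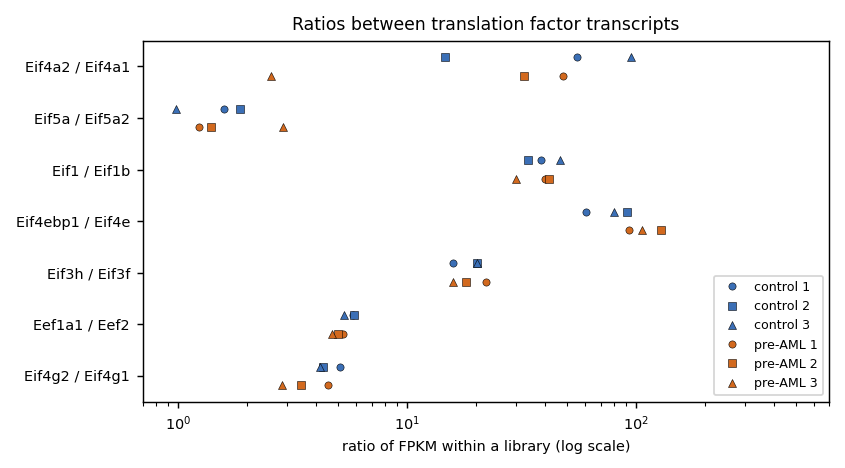
Ratio of FPKM of 7 pairs of factor genes within each library (log axis; blue, BMT control; orange, pre-AML; circle, square and triangle for libraries 1, 2 and 3). The groups are apart for Eif4ebp1 / Eif4e and Eef1a1 / Eef2, and the lowest Eif4a2 / Eif4a1 ratio, 2.55, is that of pre-AML 3.

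Many mRNAs of the translation apparatus begin with a 5′-terminal oligopyrimidine (TOP) tract, through which mTORC1 controls their translation. RefSeq start sites (GRCm38.p6) were at hand for 52 of the 65 genes, 67 sites in all, and were searched on the transcribed strand for a C followed by at least 4 more pyrimidines. The annotated first base was such a C at 2 sites (2.99%, against 2.51% of 32851 sites in the promoter table), and such a C lay within 5 bases of the start, on either side, at 16 (23.9%, against 18.3%). The sequences below run from 15 bases before the annotated start to 24 bases past it, with the longest such tract near the start in capitals, including any of its bases before the start. They are shown because Eif3f and Eif2s3x are the 2 genes whose annotated start lies at such a C, 1 at high and 1 at low level, and Eef1a1 is the most abundant gene with one close by.
Eif3f (chr7:108934400-108934439, plus strand): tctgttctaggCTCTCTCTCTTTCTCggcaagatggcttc
Eef1a1 (chr9:78481700-78481739, minus strand): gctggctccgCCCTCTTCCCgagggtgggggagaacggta
Eif2s3x (chrX:94212627-94212666, minus strand): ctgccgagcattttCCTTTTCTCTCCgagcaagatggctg
Of the 15 capitals in Eif3f, 10 in Eef1a1 and 12 in Eif2s3x, 11, 5 and 11 lie at or after the annotated start, and the others lie before it. Their mean levels were 19.4, 259 and 0.154 FPKM. The match is a description of the letters only. Whether an annotated start is the first base of the mRNA in platelets was not tested, so a marked stretch need not be a TOP tract.

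Eif4a3 had the largest log2 fold change of the 37 and the smallest unadjusted p. Despite its name it encodes a core protein of the exon junction complex, which marks spliced mRNAs. The gene (chromosome 11, 119288363-119300089, minus strand) had 1.04, 1.04 and 0.515 FPKM in controls and 2.13, 1.75 and 4.36 FPKM in pre-AML libraries, from 13 to 31 recovered reads in controls and 56 to 216 in pre-AML libraries. Every pre-AML library was above every control, with pre-AML 3 the highest. Its mean was 0.866 FPKM in controls and 2.75 in pre-AML libraries, so it passed the filter of 1 FPKM only through the pre-AML group. The log2 fold change was 0.96 (SE 0.27, adjusted p = 0.522), 0.67 without pre-AML 3 and 1.51 with a pseudocount of 0.1. GENCODE lists 3 genes near-identical to it. Below 1 FPKM, where the main test was not made, the groups did not overlap for 3 further genes, picked out after their values were seen: 2 of 28 above, against 8.11% of all genes below 1 FPKM, and 1 of 28 below, against 2.8%. The cap-binding relative Eif4e3 had 0.147 to 0.284 FPKM in controls and 0.302 to 0.368 in pre-AML libraries, Eef2k had 0.0863 to 0.150 and 0.162 to 0.295, and Eif3j1 had 0.233 to 0.341 and 0.0792 to 0.184. These values rest on few recovered reads: 4 to 8 against 11 to 22 for Eif4e3, 9 to 13 against 16 to 42 for Eef2k and 16 to 28 against 9 to 16 for Eif3j1. For Eif4e3 and Eif3j1 the reads did not come out whole in every library. The exons of all 3 overlap those of another gene, and Eif3j1 has a near-identical factor gene, Eif3j2.

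The place of pre-AML 3 among the libraries varied with the level of the gene. Of the 14 factors with at least 10 FPKM, it was the lowest of the 6 libraries for 8 (57.1%, against 62.7% of all genes at that level) and the highest for 2. Of the 23 between 1 and 10 FPKM, it was the highest for 12 (52.2%, against 24.9% of all genes at that level) and the lowest for 5 (21.7%, against 33.8%). The level was the mean over the 6 libraries, pre-AML 3 included, so that library helped to place genes in the class. Eif4a1 and Eif3m reached 1 FPKM only through pre-AML 3. They had 4.70 and 2.86 FPKM there, against at most 1.26 and 0.905 in any other library. Below 1 FPKM it was the highest for 13 of 28 (46.4%, against 43.2%). In the middle range the median log2 ratio of pre-AML 3 to the control mean was 0.39 over the factors and -0.07 over all genes, while it was -0.03 and -0.07 over the factors in pre-AML 1 and 2. The level of pre-AML 3 over the median of the other 5 libraries was 4.18 times for Eif4a3, 3.73 for Eif3m, 3.25 for Eif4h, 3.12 for Eif6 and 2.91 for Eif2b2. The summed markers of B cells, of monocytes and macrophages and of T and NK cells were highest in the same library, as given above.

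**Figure D5:**
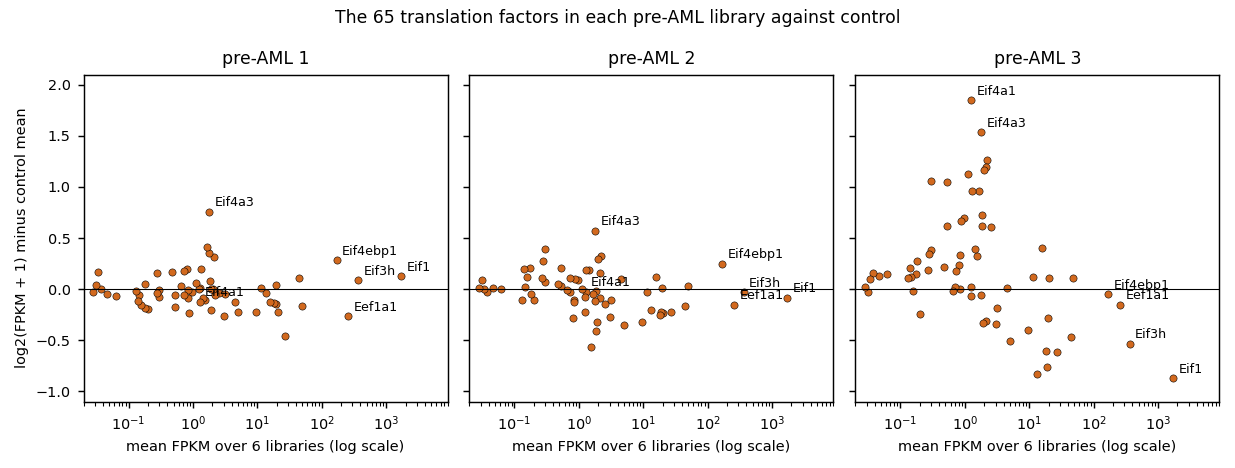
log2(FPKM + 1) of each of the 65 factors in a pre-AML library minus the mean of the 3 controls, against the mean FPKM over 6 libraries (log axis), with 1 panel per pre-AML library. The points spread more widely around 0 in pre-AML 3, where Eif4a1 is the highest and the abundant Eif1 and Eif3h lie below 0.

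None of the 20 tested genes in a list of other translation genes passed the threshold. Of 54 such genes (termination, poly(A)-binding protein, mTORC1 and its kinases, the eIF2 phosphatase and stress response, hypusine and diphthamide enzymes, mitochondrial factors), all in the table, 20 were tested, 0 passed the adjusted threshold in either direction, and at an unadjusted p under 0.05, 0 were higher (2.56% of all genes tested) and 1 was lower (6.53%). That count was 0 without pre-AML 2, pre-AML 3 or control 2, and with length and GC trends removed. Their median log2 fold change was -0.06. The one was Ppp2ca, the catalytic subunit of protein phosphatase 2A, with 7.86, 8.43 and 7.62 FPKM in controls and 6.86, 5.76 and 4.41 FPKM in pre-AML libraries (log2 fold change -0.44, SE 0.16, adjusted p = 0.522). Mknk2, a kinase of eIF4E, had 1.66, 1.84 and 1.77 against 2.09, 2.44 and 2.27 FPKM, and Pdcd4, an inhibitor of eIF4A, had 0.495, 0.705 and 0.747 against 0.90, 0.816 and 2.54 FPKM. Neither pair of groups overlapped, 2 of 20 above the controls against 6.14% of all genes tested, and the adjusted p were 0.547 and 0.536. Pdcd4 averaged 0.649 FPKM in controls and 1.42 in pre-AML libraries, so it passed the filter of 1 FPKM only through the pre-AML group. Ppp2ca was the 1 of 20 below, against 12.8%. The abundant genes of the list overlapped between the groups, among them Paip2 (mean 308 FPKM) and Pabpc1 (155 FPKM), Ppp1ca (157 FPKM) and Atf4 (141 FPKM), the transcription factor translated when eIF2 alpha is phosphorylated. Its target Ddit3 had 28.1, 48.2 and 41.9 FPKM in controls and 46.9, 48.6 and 41.9 FPKM in pre-AML libraries.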

How the data were processed

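Platelets were depleted of CD45+ and Ter119+ cells, and cDNA was made with SMART-Seq2 and Nextera XT. Per the labels and the study's methods, the authors mapped reads to mm10 with STAR and used DESeq2. The counting program, annotation and use of strand are not given in the sources used here. The deposited table holds FPKM values for 14975 genes and 6 libraries. Multiplied by GENCODE M21 exon lengths, 84.9% of values came out as whole reads (tolerance 0.01), so the depth given is recovered.

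Values were tested as log2(FPKM + 1), which understates changes of low genes, for genes averaging 1 FPKM or more, with limma-trend (limma 3.58.1, R 4.3.3), no covariates, two-sided, Benjamini-Hochberg adjustment and a threshold of 0.05. Ratios used exact permutation tests (scipy 1.17.1). Fold changes were named for the 10 highest factors, those with the 10 smallest p, the highest of each role and fixed paralog groups. Eif4e, Eif4e3, Eif3j1, Eef2k and other factors given by level only were named after their values were seen. Eef1a2, Eif4ebp3, Eif4e1b and Eef1akmt3 were not analysed here. Near-identical genes were found by a sequence search of GENCODE transcripts and had at least 95% identity over 300 bases and 50% of the shorter transcript. Such genes were also found for other factors, among them Eef2, Eef1g, Eif5a, Eif2s1 and Eif3m. The factors and gene lists were chosen with earlier results of these data known. Alternatives were a pseudocount of 0.1, other filters and scalings, removal of length and GC trends, array weights, limma-voom on the recovered reads, the replicate number as a block, and leaving out each library.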

Additional observations from a re-analysis of the deposited data

How the results depend on the processing

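No factor passed an adjusted p of 0.05 in any of the 16 alternatives, and no gene of the pathway list did. Of 372 fold changes of 24 named factors under an alternative, 348 kept their direction and 24 turned, in 10 factors, with adjusted p from 0.172 to 0.998. With equal FPKM sums, the log2 fold change was 0.0092 for Eef1akmt1, 0.161 for Eef2, 0.023 for Eif3f, 0.014 for Eif3h, 0.139 for Eif4g1 and 0.048 for Eif5a. With array weights it was 0.0052 for Eef2, -0.027 for Eif4a1 and 0.056 for Eif4g1, and with quantile normalization 0.10 for Eef2 and 0.021 for Eif4g1. With length and GC trends removed, without or with the replicate block, it was 0.010 for Eif1a and 0.024 for Eif5a2. Leaving out 1 library gave -0.333 to 0.108 for Eef1akmt1, -0.065 to 0.069 for Eef2, -0.478 to 0.023 for Eif1, -0.281 to 0.030 for Eif3h, -0.056 to 0.078 for Eif4g1 and -0.319 to 0.050 for Eif5a. The median of the tested factors was 0.051 with equal sums, 0.035 with length and GC trends removed, without or with the replicate block, -0.175 for a mean of at least 5 FPKM (15 factors), 0.032 without a filter (65 factors), and -0.067 to 0.040 with 1 library left out. At an unadjusted p under 0.05, 2 factors were higher with array weights, equal sums or quantile normalization, 0 at 5 FPKM, and 1 to 3 with 1 library left out. Lower were 0 with equal sums, 1 with length and GC trends removed, at 5 FPKM, with quantile normalization or with the replicate block, 0 with the block and trends removed, and 0 to 4 with 1 library left out (0 without pre-AML 3 or without control 2). Groups were apart upward for 0 factors at 5 FPKM, 4 without a filter and 2 to 6 with 1 library left out, and downward for 1 with equal sums, 1 at 5 FPKM and 3 to 7 with 1 library left out. The cause was not tested, other than fewer libraries or genes. Apart from the median with equal sums given above, the matching shares and medians over all genes are not given for these settings. These counts and medians therefore describe the factors only and cannot be set against all genes. With 1 library left out, groups come apart more easily for any gene. Libraries with the same number were not treated as paired in the main test. The correlations of their deviations from the group means were -0.04, -0.12 and -0.17. These cannot decide whether libraries were collected in pairs, since the deviations of the 3 libraries of a group sum to 0. In the whole table, 0 to 2 genes passed the threshold in any setting. Array weights did not fully converge and gave pre-AML 1, 2 and 3 weights of 1.05, 4.35 and 0.208, so that setting rested mostly on pre-AML 2 within its group. The lowest adjusted p of a named factor, 0.172 in limma-trend for Eif4a3, came from that setting. Of the 65 factors, 28 were too low for the main test, so differences in them were not detectable by that test. They were tested only in the alternative without a filter.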

Other observations

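The Y-linked Eif2s3y, left out of the factors, had 2.40, 2.43 and 1.47 FPKM in controls and 1.99, 1.83 and 1.27 FPKM in pre-AML libraries, and its X-linked partner Eif2s3x, which encodes the same subunit of eIF2, had 0.156, 0.168 and 0.154 against 0.0394, 0.261 and 0.146 FPKM. In reads, Eif2s3x rested on 2 to 15 per library and Eif2s3y on 73 to 142. The study's methods describe female mice, and why reads of a Y-linked gene were listed in all libraries was not tested.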
